A study of Canis lupus familiaris with 34 samples.

Results

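DNA repair gene families were examined in RNA sequencing of dog osteosarcoma. The deposited table held 23988 rows, and 56 of them carried a repair family name. Rows were taken by name alone: those beginning with FANC, and those beginning with BRCA, RAD5, XRCC, MSH, MLH, ERCC or PARP followed by a digit. This gave 11 FANC rows, 2 BRCA rows, 10 rows from RAD50 to RAD54L2, 7 XRCC rows, 4 MSH rows, 2 MLH rows, 8 ERCC rows and 12 PARP rows. A family name is not always a repair function. ERCC6L encodes a helicase of mitotic chromosomes, RAD54L2 a helicase-like protein known as a partner of the androgen receptor, XRCC6BP1 a metallopeptidase also called ATP23, and FANCD2OS is named for its place opposite FANCD2.

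Cells repair each kind of DNA damage by its own route. Homologous recombination copies an intact sister chromatid and therefore works mainly in cells that are replicating or have replicated their DNA; the BRCA proteins and the Fanconi proteins act in it or upstream of it. Mismatch repair by MSH and MLH proteins follows the replication fork, while nucleotide excision repair by ERCC proteins, end joining by Ku and XRCC4, and single-strand break repair by XRCC1 and PARP1 act in resting cells as well, and several PARP genes are known as interferon-induced genes rather than repair genes. Osteosarcoma is a bone tumour with many chromosome rearrangements in dogs as in people.

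The labels gave 2 lines grown from osteosarcoma, OSCA.8 and OSCA.78, 1 osteoblast culture (CNOB), 1 metastasis (DOS.6M) and 30 libraries of primary bone tumours. Every library was labelled Golden Retriever, although the series text speaks of Rottweilers too, and the lines were said to come from earlier primary tumours. No treatment, genotype, age or passage is given. Total RNA was sequenced from TruSeq libraries. The unit was taken to be FPKM, a fragment count divided by transcript length and library size, so levels of different genes can be set side by side. The titles DOS.46 and DOS.46.2 hold the same number, and both libraries departed from the tumour mean alike across genes (r = 0.729), so they were averaged and counted once. This left 29 primary tumours.

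Some libraries stood apart before any gene was examined. Of 561 pairs of libraries, the closest was DOS.32 with DOS.100, which carry different title numbers (r = 0.844 across genes, and 0.984 over the repair genes), above DOS.46 with DOS.46.2. DOS.110 and DOS.115 reached r = 0.671. Whether such pairs come from 1 dog is not given. The limma fits of the repair family genes on both scores and in the lines were therefore repeated with these pairs averaged. The correlations were not. The number of genes with a value above 0 ran from 15328, in the osteoblast culture, to 17711. Marker genes of the labelled cells were partly low in culture. The osteoblast culture had 24.7 FPKM of SP7, a transcription factor of osteoblasts, and 6.95 FPKM of IBSP, bone sialoprotein. The tumour libraries had medians of 57.4 and 1060 FPKM. SP7 in the culture lay inside the tumour range (7.72 to 136 FPKM), and IBSP lay below the lowest tumour library (48.6 FPKM). IBSP had 1.96 and 0.717 FPKM in OSCA.8 and OSCA.78. Among these bulk samples, fewer cells of a type and less RNA per cell cannot be told apart. The labels do not tie samples to dogs, so p-values measure the spread between these samples.

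Of the 56 members, 54 had at least 1 FPKM in at least 2 libraries and were tested, and 47 of these were at or above 1 FPKM in every primary tumour. The exceptions that were not tested were MSH4, a meiotic mismatch protein, with at most 0.232 FPKM in the tumours, and RAD51AP2, with at most 0.217 FPKM. The highest tumour median of any member was that of PARP1, the main sensor of DNA strand breaks, at 43.4 FPKM. XRCC1 (28.7 FPKM), RAD52 (27.7 FPKM) and XRCC6 (24.1 FPKM) were also among the highest. The lowest medians among the tested members were those of FANCD2OS (0.177 FPKM) and FANCF (0.783 FPKM). Spread between tumours ranged from an SD of 0.30 for ERCC1 to 0.94 for PARP3 on the log2(FPKM + 1) scale, on which changes of genes near or under 1 FPKM are understated.

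Proliferation was measured in each tumour by a mitotic score, the mean z-score of 23 genes of mitosis such as MKI67, TOP2A and PLK1, none of them a repair gene, scaled to an SD of 1 over the tumours. DOS.76 had the lowest score (-2.12), followed by DOS.115 (-1.81), and DOS.101 the highest (1.93). A score of 22 replication genes followed it closely across the 29 tumours (r = 0.907, permutation p = 1e-05, the smallest that 100000 permutations give; adjusted p = 9e-05 over 9 relations; rho = 0.895, adjusted p = 9e-05; r = 0.902 without DOS.76 and DOS.115). Of the 8 other measures, the endothelial score came nearest to the threshold (r = -0.443, permutation p = 0.0164, adjusted p = 0.0738; rho = -0.425, adjusted p = 0.101; r = -0.484 without the same tumours). The slope of each gene on the mitotic score is its change in log2(FPKM + 1) per SD of score.

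With limma, 14 of 54 repair genes had a positive slope on the mitotic score and 1 a negative slope at an adjusted p below 0.05. Of all 15165 genes tested, 4.52% had a called positive slope and 4.22% a called negative one. The median slope of the repair genes was 0.09, against -0.02 for all genes. Both BRCA genes were called, followed in share by FANC (4 of 11), RAD5 (3 of 9), PARP (2 of 12 positive, 1 negative), XRCC (1 of 7) and ERCC (1 of 8). The mismatch repair families are not counted here. Median slopes were 0.48 for BRCA, 0.16 for RAD5, 0.12 for FANC, 0.06 for XRCC, 0.02 for ERCC and 0.00 for PARP. These families hold 2 to 12 genes, and the difference between families was not tested.

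**Figure D1:**
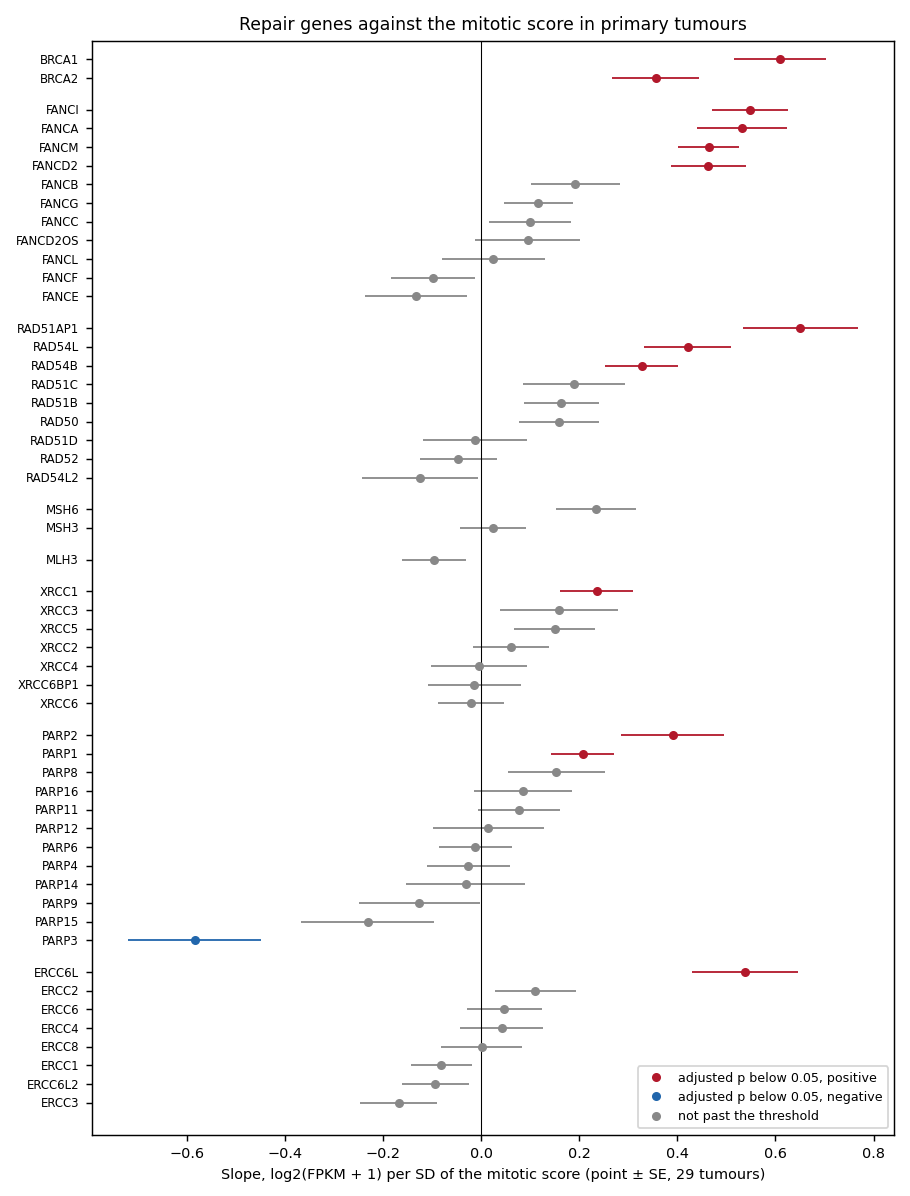
Slope of each of 52 tested repair genes on the mitotic score, in log2(FPKM + 1) per SD with its standard error over 29 primary tumours, grouped by family. Called positive slopes (red) reach 0.65 for RAD51AP1, PARP3 (blue) lies at -0.58, and in the ERCC family ERCC6L is the only coloured point.

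BRCA1 and BRCA2, which direct break ends to homologous recombination, both rose with the score. BRCA1 had a lowest value of 1.30, a median of 4.01 and a highest value of 15.7 FPKM. Its lowest tumour, DOS.76, was also the one with the lowest mitotic score, and DOS.105 and DOS.73, among the 3 highest scores, had its highest values. The limma slope was 0.61 ± 0.09 log2 per SD (SE, adjusted p = 3.24e-05), with r = 0.787 (permutation, adjusted p = 0.000699) and rho = 0.761 (adjusted p = 0.000914). BRCA2 ran from 1.92 through a median of 3.93 to 11.3 FPKM. DOS.73 was again high, but DOS.11, with a score just below the mean, was second highest. Its limma slope was 0.36 ± 0.09 (adjusted p = 0.0101; r = 0.617). BRCA1 and BRCA2 correlated with each other across tumours at r = 0.760.

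The Fanconi anaemia proteins open DNA crosslinks, and 4 of the 11 members were called. FANCD2 and FANCI, the pair that is ubiquitinated at the crosslink, both rose with the score. FANCI ran from 2.84 through a median of 5.45 to 16.3 FPKM, with DOS.76 and DOS.115 lowest and DOS.105 and DOS.73 highest, and had a slope of 0.55 ± 0.08 (limma adjusted p = 8.97e-06). FANCD2 ran from 2.61 through 7.81 to 16.2 FPKM. Its lowest tumour was DOS.76 as well, while its highest, DOS.56, had a score near the mean, and its slope was 0.46 ± 0.08 (limma adjusted p = 8.48e-05). The row FANCD2OS, from the opposite strand at the FANCD2 locus, had a slope of 0.09 ± 0.11 that was not called. Counting by strand was not stated in the sources used here, so reads of both genes cannot be told apart.

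FANCM, the translocase that anchors the Fanconi core complex to DNA, had the highest Pearson r with the mitotic score of the 54 members, while FANCI had the highest rho (0.833). It ran from 0.463 through 1.89 to 5.77 FPKM, lowest in DOS.115 and highest in DOS.101, the tumour with the highest score. Its r was 0.863 (permutation p = 1e-05, adjusted p = 0.000699), its rho 0.827 (adjusted p = 0.000914) and its r without DOS.76 and DOS.115 was 0.867. The limma slope was 0.46 ± 0.06 (adjusted p = 3.37e-06). FANCA, a core complex subunit, ran from 1.20 through 3.46 to 11.4 FPKM and had a slope of 0.53 ± 0.09 (limma adjusted p = 0.000202). The other core subunits were not called: slopes were 0.19 for FANCB, 0.12 for FANCG, 0.10 for FANCC, 0.02 for FANCL, which is the ubiquitin ligase, -0.10 for FANCF and -0.13 for FANCE. The median r within the FANC family was 0.182.

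**Figure D2:**
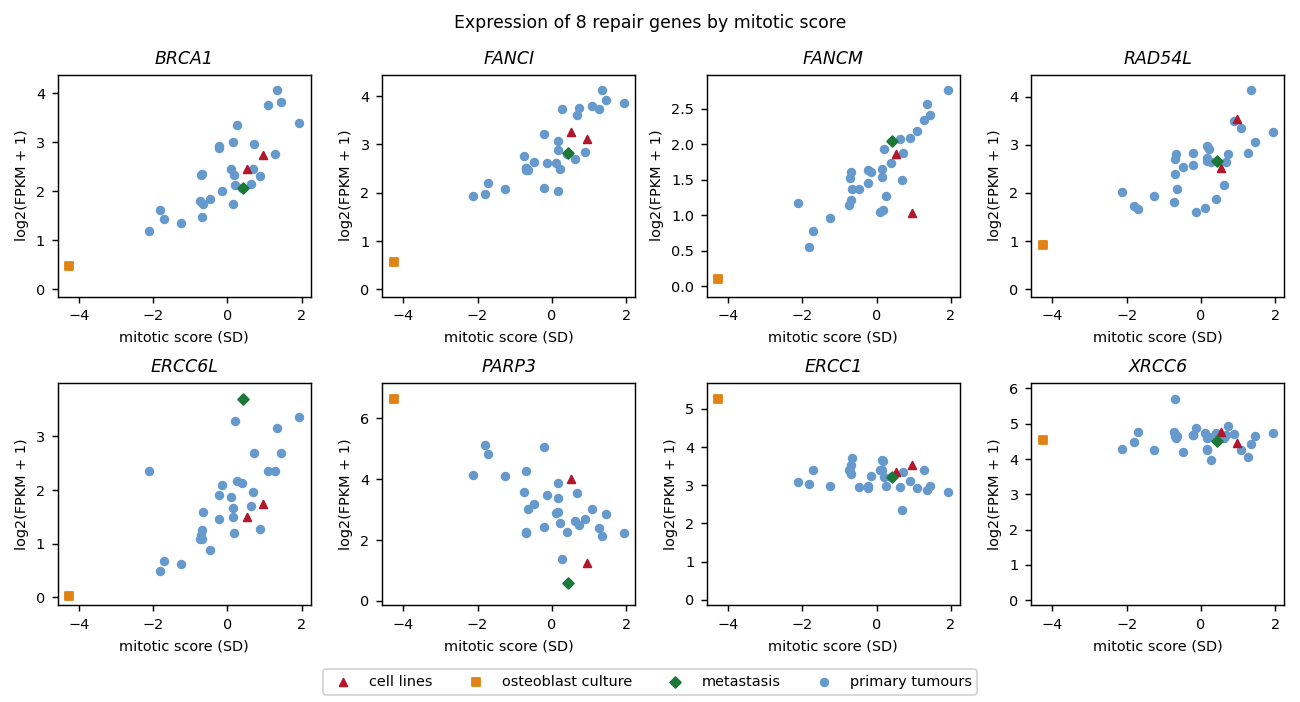
Expression of 8 repair genes, log2(FPKM + 1), against the mitotic score (SD of the primary tumours) in the cell lines, osteoblast culture, metastasis and 29 primary tumours. BRCA1, FANCI, FANCM, RAD54L and ERCC6L rise across the tumours and PARP3 falls, while ERCC1 and XRCC6 show slopes of -0.08 and -0.02.

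Among the RAD50 to RAD54 genes, the helpers of strand invasion were called and the break sensor and RAD51B, RAD51C and RAD51D were not. RAD51AP1, which stimulates joint molecule formation, had the steepest slope of any member, 0.65 ± 0.12 (limma adjusted p = 0.000338). Its lowest, median and highest values were 2.52, 8.29 and 35.2 FPKM. DOS.112 and DOS.116 had the highest values, 35.2 and 32.6 FPKM, although their scores were 0.16 and 0.72 SD. RAD54L, a motor protein of strand exchange, ran from 2.03 through 5.26 to 16.5 FPKM with its highest value in DOS.105, and had a slope of 0.42 ± 0.09 (adjusted p = 0.002). RAD54B, its paralogue, ran from 0.280 through 1.78 to 3.51 FPKM, with a slope of 0.33 ± 0.08 (adjusted p = 0.00466). RAD50, the coiled-coil subunit of the break-sensing complex, had a slope of 0.16 and the recombination genes RAD51B, RAD51C and RAD51D had slopes of 0.16, 0.19 and -0.01, none of them past the threshold. RAD52, an annealing protein, lay at -0.05 and RAD54L2 at -0.13.

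Of the mismatch repair genes, MSH6 and MSH3, which encode alternative partners in mismatch recognition, had slopes of 0.23 ± 0.08 (limma adjusted p = 0.0669) and 0.02 ± 0.07 (adjusted p = 0.882). MLH3, whose product acts in meiosis, ran from 3.91 through 7.21 to 12.2 FPKM, highest in the low-scoring DOS.115, and had a slope of -0.10 ± 0.07 (adjusted p = 0.4).

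Slopes in the XRCC and ERCC families had medians of 0.06 and 0.02, and 1 gene of each family was called. XRCC1, the scaffold of single-strand break repair, ran from 13.7 through 28.7 to 51.8 FPKM. DOS.81 was lowest and DOS.46 highest, and neither has an extreme score. Its slope was 0.24 ± 0.07 (limma adjusted p = 0.0447). The other XRCC genes were not called: the recombination paralogues XRCC2 and XRCC3 had slopes of 0.06 and 0.16, the end joining protein XRCC4 0.00, the Ku subunits XRCC5 and XRCC6 0.15 and -0.02, and XRCC6BP1 -0.01. In the ERCC family, the called gene was ERCC6L, which ran from 0.411 through 2.26 to 9.32 FPKM and was lowest in DOS.115 and highest in DOS.101. ERCC6L had a slope of 0.54 ± 0.11 (adjusted p = 0.00133) and an r of 0.686, or 0.798 without DOS.76 and DOS.115. DOS.76, the tumour with the lowest score, went against this slope, with 4.11 FPKM of ERCC6L. The incision nuclease genes ERCC1 and ERCC4 had slopes of -0.08 and 0.04. Those of the TFIIH helicase genes ERCC2 and ERCC3 were 0.11 and -0.17. The transcription-coupled repair genes ERCC6 and ERCC8 had slopes of 0.05 and 0.00, and the helicase gene ERCC6L2 a slope of -0.09. None of these genes was called. For ERCC3, r was -0.391 (permutation, adjusted p = 0.179), and -0.476 without DOS.76 and DOS.115.

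Of the 12 PARP genes, 3 were called on the mitotic score. PARP1 and PARP2, the enzymes activated by DNA breaks, had positive slopes. PARP2 ran from 7.49 through 16.8 to 50.6 FPKM, lowest in DOS.56 and highest in DOS.101, with a slope of 0.39 ± 0.10 (limma adjusted p = 0.0165). PARP1 ran from 24.4 through 43.4 to 63.9 FPKM, a narrow range with DOS.85 lowest and DOS.56 highest, and had a slope of 0.21 ± 0.06 (adjusted p = 0.0376). PARP3, another break-activated enzyme that acts with the end joining machinery, ran the other way. It had 1.61 FPKM in its lowest tumour, a median of 6.55 and 34.3 FPKM in its highest, DOS.115, which had the second lowest mitotic score. Its slope was -0.58 ± 0.14 (adjusted p = 0.00513), r was -0.623 (permutation, adjusted p = 0.0088) and rho -0.592 (adjusted p = 0.0212). Without DOS.76 and DOS.115 the slope was -0.52 and the adjusted p 0.0592.

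XRCC1 and PARP1 lost their calls under several changes of the fit. With the interferon score, the macrophage score or the number of detected genes as a covariate, the 12 other positive calls were kept and XRCC1 and PARP1 were lost, with adjusted p between 0.0527 and 0.0864. With the endothelial score as a covariate PARP2 was lost too (slope 0.39, adjusted p = 0.0516). Averaging DOS.32 with DOS.100 left the 14 positive calls and the PARP3 call in place, and averaging DOS.110 with DOS.115 as well left 12 of the 14 and PARP3. When MKI67 alone replaced the score, RAD51AP1 (adjusted p = 0.29), ERCC6L (0.107), RAD54B (0.126), XRCC1 (0.119) and PARP3 (0.141) were no longer called, while MSH6, ERCC2 and XRCC3 were called positive.

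The 14 genes with positive slopes were picked by their link to the mitotic score in these same tumours. Across the 29 tumours the median r over their 91 pairs was 0.568, with a lowest of 0.227. It was 0.10 after the mitotic score had been removed from each gene by regression. The 36 members without a positive call on either score, PARP3 among them, had a median pairwise r of 0.004, between -0.713 and 0.718. The correlation among the 14, its fall without the score and the contrast with the 36 follow from how the 14 were picked. All these correlations share the same 29 libraries and are given as a description only.

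**Figure D3:**
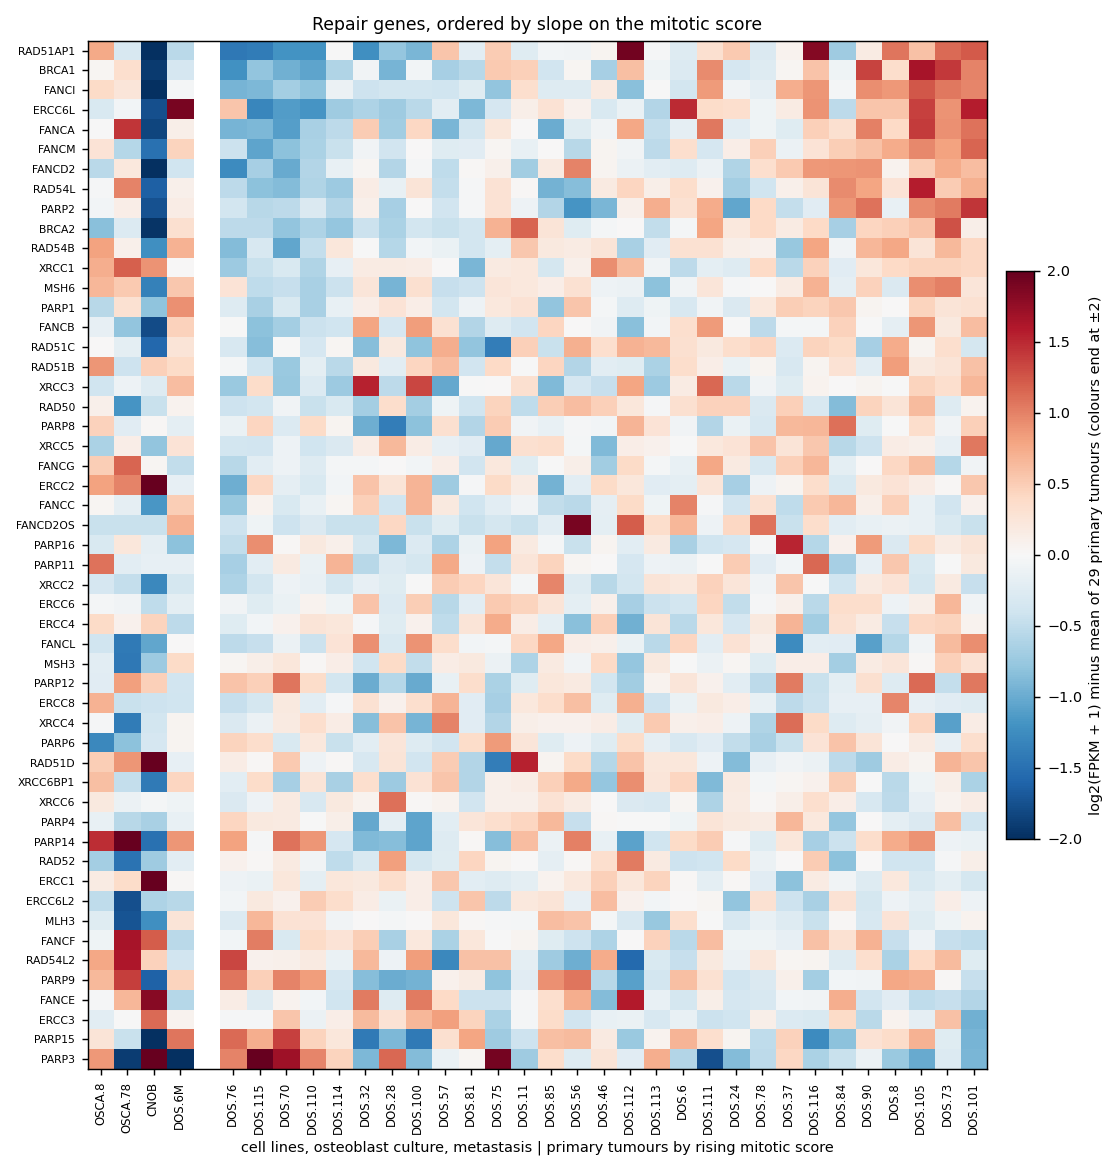
Level of 52 repair genes, log2(FPKM + 1) minus the mean of 29 primary tumours, with rows by falling slope on the mitotic score and columns for the cell lines, osteoblast culture, metastasis and then the tumours by rising score. Most top rows turn from blue in DOS.76 to red in DOS.101, but ERCC6L is not blue in DOS.76 (4.11 FPKM, tumour median 2.26). The osteoblast culture is dark blue in the top rows, and the bottom row, PARP3, runs the other way.

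Genes of the same routes that carry other names were read on the same score. The lists were chosen with earlier results of these data known. Of 36 genes tested on the homologous recombination list, 16 had a called positive slope and none a called negative one by limma. At an unadjusted p below 0.05, 0 were negative, and the median slope was 0.20. The list also holds genes of the fork checkpoint, such as CLSPN. For this and the lists that follow, 4.52% of all genes had a called positive slope and 4.22% a called negative one. The steepest were DNA2, an end resection nuclease, at 0.68 ± 0.08, CLSPN, a checkpoint adaptor at the fork, at 0.59 ± 0.08, and EXO1, a nuclease of resection and mismatch repair, at 0.55 ± 0.07. Of 12 Fanconi partners, 3 were called: UBE2T, the enzyme that passes ubiquitin to FANCD2 and FANCI (0.66 ± 0.10), the nuclease DCLRE1B (0.43 ± 0.07) and USP1, the enzyme that takes that ubiquitin off (0.31 ± 0.07). None of the partners had a called negative slope, with 2 negative at an unadjusted p below 0.05.

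Of 10 mismatch repair partners, 6 were called, EXO1 among them again, with the clamp loader gene RFC4 at 0.65 ± 0.10 and the polymerase subunit gene POLD1 at 0.50 ± 0.10. Several of these also serve the replication fork. Of 20 base excision genes 2 were called, the flap nuclease gene FEN1 (0.55 ± 0.09) and the uracil glycosylase gene UNG (0.37 ± 0.12), with 8 positive and 0 negative at an unadjusted p below 0.05. Of 15 nucleotide excision genes 1 was called, MNAT1 (0.29 ± 0.08), a subunit of the kinase of TFIIH. Of 6 end joining genes none was called by limma or by either permutation test, and none had an unadjusted p below 0.05. Median slopes were 0.35, 0.10, -0.03 and -0.04 for the mismatch, base excision, nucleotide excision and end joining lists. The difference between lists was not tested.

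A second axis was the interferon response, measured by the mean z-score of 23 interferon-stimulated genes such as ISG15, IFIT1 and OAS1, with no PARP gene in the list. The lowest score was -1.40, in DOS.28, and the highest 2.34, in DOS.70. With limma, 4 of 54 repair genes had a called positive slope on it, all of them PARP genes, and none a called negative one, with 2 negative slopes at an unadjusted p below 0.05. Over all 15165 genes, 1.02% were called positive and 0.0593% negative. The median slope of the repair genes was -0.04, against 0.01 for all genes.

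PARP9, PARP14 and PARP15 encode macrodomain proteins, and PARP12 encodes an enzyme that transfers single ADP-ribose units. PARP9 ran from 1.09 through 3.29 to 8.37 FPKM. DOS.56, DOS.76 and DOS.70, the 3 tumours with the highest interferon scores, were its 3 highest, and its slope was 0.58 ± 0.07 (limma adjusted p = 4.42e-06). PARP14 ran from 0.811 through 2.54 to 7.01 FPKM, lowest in DOS.112 and highest in DOS.70, and had a slope of 0.56 ± 0.07 (adjusted p = 3.1e-06). PARP15 ran from 1.80 through 7.77 to 18.3 FPKM, with DOS.100 and DOS.32 lowest and DOS.70 highest, and had a slope of 0.55 ± 0.10 (adjusted p = 0.00207). PARP12 ran from 2.36 through 5.10 to 13.8 FPKM, highest in DOS.105, and had a slope of 0.42 ± 0.09 (adjusted p = 0.0052). Their slopes on the mitotic score were -0.13, -0.03, -0.23 and 0.01, none of them called.

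The genes PARP9, PARP15 and PARP14 lie side by side on chromosome 33 of the dog assembly UU_Cfam_GSD_1.0, with DTX3L, the partner of PARP9, between PARP9 and PARP15. PARP12 lies on chromosome 16. The assembly differs from that of the files, so it was used for neighbours only. Across tumours the 4 genes correlated at a median r of 0.745 over 6 pairs, and at 0.772 with the mitotic score removed. The 4 were picked by their slopes on the interferon score in these same tumours, so a positive r between them follows from that choice.

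Macrophage genes moved with the interferon score. The macrophage score correlated with it at r = 0.561 (permutation p = 0.00137, adjusted p = 0.00822 over 6 relations; rho = 0.541, adjusted p = 0.0155; r = 0.483 without DOS.70 and DOS.76). All 11 macrophage genes tested had slopes above 0, of which 1, AIF1, was called, their summed level ran from 86.4 to 1532 FPKM over the tumour libraries, and no macrophage marker was at 0 throughout. With the macrophage score as a covariate, PARP9 and PARP14 kept their calls and PARP12 (slope 0.35, adjusted p = 0.32) and PARP15 (slope 0.30, adjusted p = 0.518) lost them. All 4 calls held with the T cell score as a covariate, without DOS.70 and DOS.76, and with DOS.32 and DOS.100 averaged. The part of macrophages in these slopes was not tested beyond that.

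**Figure D4:**
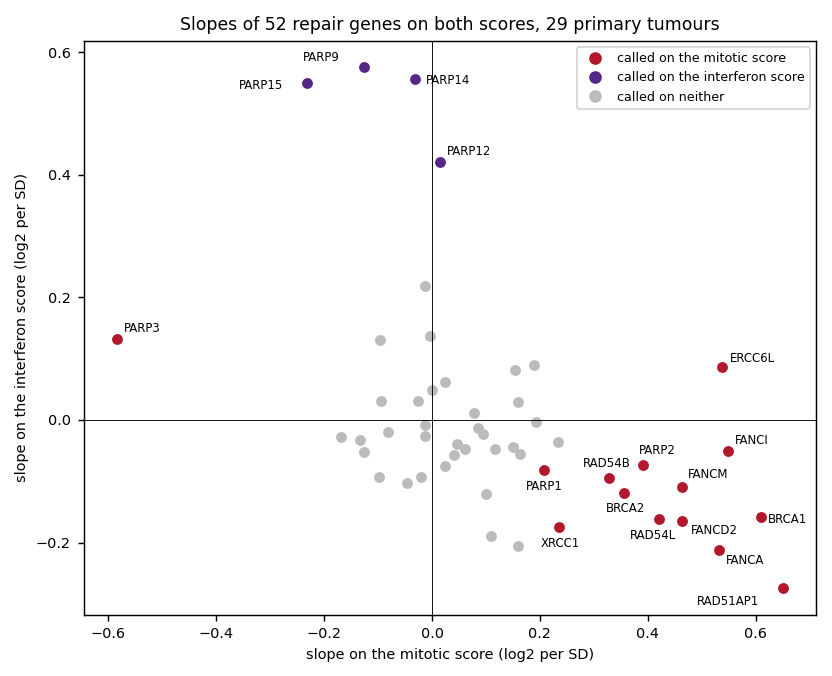
Slope of each of 52 repair genes on the mitotic score (x axis) and on the interferon score (y axis), both in log2(FPKM + 1) per SD over 29 primary tumours. PARP9, PARP14, PARP15 and PARP12 (purple) lie at 0.42 or above on the interferon axis, and no gene is called on both scores.

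The cell lines were compared with the primary tumours. Their mitotic scores, 0.52 for OSCA.8 and 0.96 for OSCA.78, lay within the range of the tumours. With limma, 3 of 54 repair genes were higher in the lines and 5 lower, when 8.49% of all genes were called higher and 7.92% lower, so the share of repair genes called was near that of all genes. The 14 genes tied to the mitotic score had 1 member among these 8, XRCC1. Of all genes 1288 were called higher and 1201 lower, which turned to 961 higher and 1394 lower with upper quartile scaling of the libraries.

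PARP14 had 9.57 FPKM in OSCA.8 and 19.2 FPKM in OSCA.78, against a lowest value of 0.811, a median of 2.54 and a highest value of 7.01 FPKM in the tumours. Both lines were above all 29 tumours, at a difference of 1.95 ± 0.46 log2 (SE, limma adjusted p = 0.00369). The interferon score of OSCA.78 was 3.45, above every tumour, and that of OSCA.8 was 0.59. Of 23 interferon genes, 10 were called higher in the lines, while 18 had differences above 0 and 5 below. The other PARP genes called on the interferon score were not called in the lines by limma. Their differences were 1.02 for PARP9 (adjusted p = 0.142), 0.30 for PARP12 (adjusted p = 0.678) and -0.10 for PARP15 (adjusted p = 0.919). XRCC1 had 45.1 and 62.3 FPKM in OSCA.8 and OSCA.78, against 13.7 to 51.8 FPKM in the tumours with a median of 28.7. OSCA.8 lay within the tumours and OSCA.78 above them, and the difference was 0.96 ± 0.33 (adjusted p = 0.0402). FANCG, a core Fanconi subunit, had 17.5 and 28.6 FPKM in OSCA.8 and OSCA.78, against 7.09 to 21.4 FPKM with a median of 11.8 in the tumours. Again OSCA.78 alone was beyond the tumours (difference 0.83 ± 0.29, adjusted p = 0.0417).

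Lower in the lines were ERCC6L2, RAD52, PARP6, MLH3 and MSH3. ERCC6L2 had 11.1 and 4.11 FPKM in OSCA.8 and OSCA.78, against 9.05 to 25.5 FPKM with a median of 16.7 in the tumours (difference -1.14 ± 0.29, limma adjusted p = 0.00686). RAD52 had 16.7 and 9.19 FPKM in the lines, against 15.1 to 57.5 FPKM with a median of 27.7 in the tumours (-1.08 ± 0.31, adjusted p = 0.0144). In both genes OSCA.78 was below every tumour and OSCA.8 was inside their range. PARP6, an enzyme that transfers single ADP-ribose units, had 5.70 FPKM in OSCA.8 and 8.21 FPKM in OSCA.78, and every tumour was higher, at 9.45 to 28.4 FPKM with a median of 14.2 (-1.05 ± 0.29, adjusted p = 0.0105). MLH3 had 6.02 and 1.52 FPKM in the lines, against a tumour median of 7.21 FPKM (-0.99 ± 0.29, adjusted p = 0.0182), and MSH3 had 7.95 and 2.82 FPKM, against a tumour median of 10.2 FPKM (-0.82 ± 0.28, adjusted p = 0.0402). OSCA.8 lay within the tumour range for both, and OSCA.78 was below it.

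**Figure D5:**
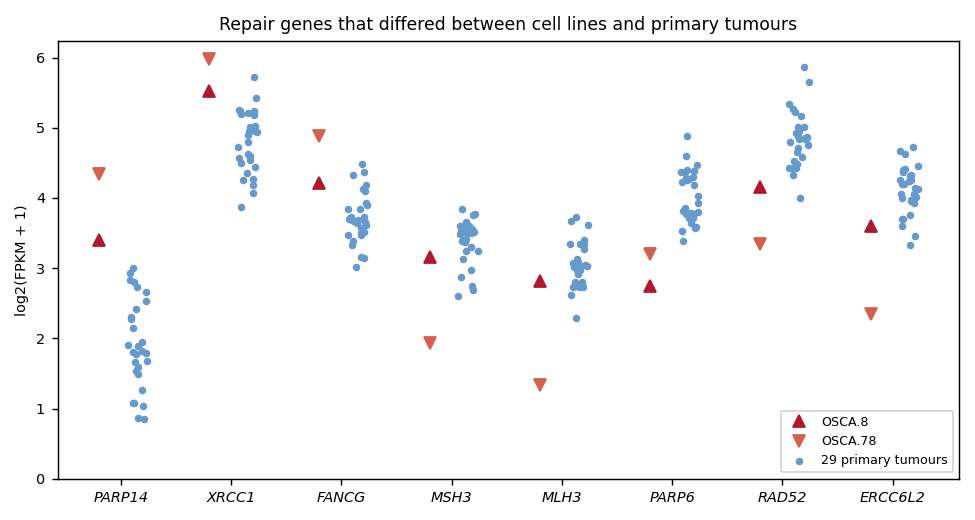
Level, log2(FPKM + 1), of the 8 repair genes that differed between the cell lines (OSCA.8 and OSCA.78, triangles) and 29 primary tumours (dots, spread sideways for legibility). Both lines are beyond every tumour for PARP14, at 9.57 and 19.2 FPKM, and for PARP6, and for the other 6 genes OSCA.78 alone is.

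Of the 8 genes called, all but PARP6 were farther from the tumours in OSCA.78 than in OSCA.8. PARP6 had 5.70 FPKM in OSCA.8 and 8.21 FPKM in OSCA.78. OSCA.8 lay within the tumour range for all of them except PARP14 and PARP6. A fit with 1 line left out keeps a single line, so it cannot show which line a call rests on. Both lines were above all tumours for PARP14 and ERCC2 (4.04% of all genes) and below all tumours for PARP6 and FANCD2OS (7.3% of all genes). FANCD2OS was effectively at 0 in both lines and in several tumours as well, so nothing is read from its order. ERCC2 had 12.6 and 14.4 FPKM in the lines, against 2.95 to 11.5 FPKM in the tumours (difference 0.90 ± 0.32, adjusted p = 0.0519). Markers of other cell types were low: all 11 macrophage genes and all 8 endothelial genes tested were called lower in the lines. Of 8 bone matrix genes tested, 5 were called lower too, IBSP and SP7 among them. The summed macrophage level was 1.70 to 2.61 FPKM in the lines, against 86.4 to 1532 FPKM in the tumour libraries, and the summed endothelial level 0.467 to 0.532 FPKM, against 91.6 to 2465 FPKM. None of these markers was at 0 in both lines, and their part in the 8 differences was not tested.

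The osteoblast culture was a single library and is described without a test. Its mitotic score was -4.26, below every tumour, and its summed level of mitotic genes was 38.0 FPKM, against 143 to 1536 FPKM in the tumour libraries. Of the 54 members, 24 lay below all 29 tumours and 7 above, when 19.5% of all genes lay below and 22% above. Of the 14 genes tied to the mitotic score in the tumours, 13 were below every tumour in the culture, XRCC1 being the other, and of the 40 other members 11 were. The median difference from the tumour mean was -1.76 log2 for those 14, -0.39 for the other 40 and -0.14 for all genes. RAD51AP1 had 0.0547 FPKM in the culture against 2.52 FPKM in its lowest tumour, ERCC6L 0.0227 against 0.411 FPKM, and BRCA1 0.400 against 1.30 FPKM. FANCI had 0.473 FPKM against 2.84 FPKM. The summed interferon genes were at 117 FPKM, against 138 to 706 FPKM, and PARP9, PARP14 and PARP15 were also below all tumours, at 0.445, 0.346 and 0.774 FPKM, whereas PARP12 had 8.49 FPKM, above 24 of the 29 tumours. FANCD2OS is counted among the 24 members below all tumours, but it is listed at or near 0 in the culture and in some tumours alike.

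The 7 of 54 members above all tumours in the culture, when 22% of all genes lay above, were FANCE, FANCF, RAD51D, ERCC1, ERCC2, ERCC3 and PARP3. PARP3 had 97.7 FPKM, against 34.3 FPKM in the highest tumour. ERCC1 had 37.1 FPKM against a highest tumour value of 12.1, ERCC2 32.8 against 11.5, and ERCC3 50.7 against 40.3 FPKM. ERCC4, at 10.03 FPKM, lay within the tumour range. The recombination gene RAD51D had 34.0 FPKM against a highest tumour value of 22.8, and RAD51B, at 5.18 FPKM, was within the tumour range. Markers of other cells were low but not all at 0: the summed macrophage level was 24.98 FPKM with AIF1 at 0, and the summed endothelial level 3.54 FPKM with TIE1 at 0. Their part in these values was not tested.

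The metastasis, DOS.6M, shares its title number with primary tumour DOS.6. Its mitotic score was 0.43. Against the 29 tumours, 2 members lay above all (ERCC6L and PARP1) and 1 below all (PARP3), when 5% of all genes lay above and 3.53% below. ERCC6L had 11.9 FPKM in DOS.6M and 8.77 FPKM in DOS.6, against a highest tumour value of 9.32 FPKM. PARP1 had 82.3 FPKM in DOS.6M and 34.3 FPKM in DOS.6, against 63.9 FPKM in the highest tumour. PARP3 had 0.517 FPKM in DOS.6M and 4.84 FPKM in DOS.6, against 1.61 FPKM in the lowest tumour. Those last 2 genes also marked the ends of the range between the pair, from -1.94 log2 for PARP3 to 1.24 for PARP1, around a median of 0.00 for the members and for all genes.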

How the data were processed

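The authors deposited 1 table with 34 libraries as columns, and no unit stands in its header. FPKM was taken as the unit of the deposited values. It was read from the submitters' processing notes, which name Cufflinks 2.2.1 along with TopHat2 2.0.13, FastQC 0.11.2 and the dog build canFam3. The column sums also differ between libraries, from 479053 to 1418310. Annotation, parameters and strand were not given in the sources used here. Since read numbers are unknown, no counting interval was computed, and 9653 rows carry an Ensembl identifier only.

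A row was kept where 2 or more libraries reached 1 FPKM (15165 rows), and log2(FPKM + 1) was fitted with limma 3.58.1 under R 4.3.3 (lmFit, then eBayes with its trend and robust settings, two-sided, Benjamini-Hochberg over all rows kept, threshold 0.05). Pearson and Spearman correlations used 100000 permutations of the tumours (Python 3.11.15, numpy 2.4.6, scipy 1.17.1), adjusted likewise. The fits were tested on simulated data in which genes were drawn independently of each other and 100 genes were changed at each known size. Of true slopes of 0.25 and 0.5 log2 per SD, 15% and 69% were called. Of true differences of 1 and 2 log2 between lines and tumours, 5% and 42% were called. False calls numbered 5 for the slopes and 0 for the lines, of 15165 genes. On the mitotic score and in the lines, more genes were called than were changed in the simulation, so these shares cannot be carried over to them. A gene that was not called can still have changed. The metastasis and the osteoblast culture have 1 library each and no test. Their values were set against the tumours as deposited, without scaling between libraries. The members and gene lists were chosen with earlier results of these data known. Named genes were the 12 steepest called positive and up to 6 negative slopes on the mitotic score, up to 8 positive and 4 negative on the interferon score, up to 10 called changes in the lines, the 2 highest members of a family with none of these, and 3 per list of other repair genes. Values of other members were added after they had been seen. Alternatives covered pseudocount, filter, scaling, fit options, covariates, the score, and left-out or averaged libraries. The numbers in the titles of lines and tumours (DOS.8 with OSCA.8, r = 0.301; DOS.78 with OSCA.78, r = 0.243) are not stated to mark 1 dog. Member sequences were not analysed here, and the values of some members are not reported here.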

Additional observations from a re-analysis of the deposited data

How the results depend on the processing

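No member called in the main fits changed direction under any setting tried. The 1 negative call on the mitotic score became 0 without the 2 tumours farthest from the median score (2 at an unadjusted p below 0.05) and 0 with MKI67 alone as the score (4 unadjusted). Over all genes, negative calls on that score, 640 as reported, numbered 281 without those tumours, 407 by Spearman permutation, 416 with both close pairs of libraries averaged and 302 with the endothelial covariate, which left 444 positive ones. That averaging and the endothelial and T cell covariates were chosen after seeing the data. With the macrophage covariate the positive interferon calls fell to 2 among members and 44 among all genes, and rows with a symbol alone gave 98. Negative interferon calls over all genes ran from 3 with the macrophage covariate to 31 with the number of detected genes, against 9 as reported. In the lines, members called higher fell to 1 with upper quartile scaling and 1 with the mitotic covariate. Leaving out 1 line at a time gave 0 to 3 higher and 0 to 4 lower. A replicate block of the title numbers left 0 higher and 0 lower by limma (2 and 0 unadjusted), and 0 of all genes, with 2 pairs. The causes of these changes were not tested. Low values limit members such as FANCD2OS, FANCF and RAD54B, and with 2 lines the spread comes almost wholly from the tumours. The planned motif search in promoters was not run.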

Other observations

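Base excision repair removes single damaged bases, and its genes outside the families above were examined in the lines after their values had been seen. Of 20 such genes tested, 7 were called higher in the lines by limma and none lower, with 10 and 2 at an unadjusted p below 0.05, at a median difference of 0.66 log2, when 8.49% of all genes were called higher and 7.92% lower. With upper quartile scaling limma called 5 higher and 0 lower (8 and 2 at an unadjusted p below 0.05). The other repair lists were fitted in the lines too. Of 36 homologous recombination genes, 3 were called higher and 3 lower, and of 12 Fanconi partners 1 and 0. Of 6 end joining genes 1 was higher and 0 lower, of 10 mismatch genes 0 and 1, and of 15 nucleotide excision genes 0 and 1. The difference between lists was not tested. NEIL1, a glycosylase of oxidised bases, had 22.2 FPKM in OSCA.8 and 35.0 FPKM in OSCA.78, against 1.77 to 29.04 FPKM with a median of 4.89 in the tumours (difference 2.1997 ± 0.50, limma adjusted p = 0.00242). OSCA.8 lay within the tumours and OSCA.78 above them. LIG3, the ligase partner of XRCC1, had 22.2 and 40.1 FPKM in the lines, against 7.71 to 30.1 FPKM with a median of 13.1 in the tumours (1.12 ± 0.34, adjusted p = 0.02), so only OSCA.78 was beyond them here too. The others called were UNG, FEN1, NEIL2, APEX2 and MPG. Without OSCA.78 none was called higher or lower, with 1 higher and 0 lower at an unadjusted p below 0.05, and without OSCA.8 there were 5 higher and 1 lower.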
